A study of Homo sapiens with 10 samples.

Results

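The 37 genes described here act in the G2 phase and in mitosis. They were chosen as a fixed list of gene symbols, and all 37 were found among the 60651 gene rows of the count table. The RNA of cultured human cells was sequenced in 10 libraries, which form 5 groups of 2. HT29, an established colorectal cancer cell line, received 10 µM of VXN or the solvent DMSO. The line t-hESC, labelled as transformed pluripotent stem cells, received 1 µM of BIX, 10 µM of VXN or DMSO. The compounds and doses stand in the sample titles. In the treatment field all samples carry 48 hours of DMSO, and the time rests on that field alone. VXN is given by this code name alone. The name BIX is used for a drug against G9a and GLP, enzymes that methylate lysine 9 of histone H3, and the series title speaks of dimethylation at that lysine. The series calls the 2 libraries of a group biological replicates. The p-values below rest on the spread between such replicates, pooled over the 5 groups and shared in part over all tested genes. They cover no other variation.

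Cells enter mitosis when cyclin A and cyclin B activate the kinase CDK1, with help from the polo-like and Aurora kinases. Kinetochores then attach chromosomes to the spindle, the spindle checkpoint holds back the anaphase-promoting complex until every chromosome is attached, and that complex finally destroys cyclin B and securin. Transcripts of these genes are low in G1 and in resting cells and peak in G2 and mitosis, through DNA elements named CDE and CHR that are bound by the DREAM repressor complex in resting cells and by MuvB with B-MYB and FOXM1 in dividing cells. Several of them, such as MKI67 and TOP2A, are in wide use as markers of dividing cells.

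The libraries held 13137026 to 24492838 counts over genes. A level is given in CPM, the count of a gene relative to the normalized library size, and a count of 0 would allow up to 0.123 to 0.220 CPM in a library, for counting error only. All 37 genes passed the filter on low counts in a table of 22495 tested genes, and the lowest value of any of them in any library was 5.81 CPM. Marker genes were set against the labels: 9 of 10 pluripotency markers lay above 1 CPM in every t-hESC library, with ZFP42 at or near 0, and their summed level was 5049 to 5713 CPM in t-hESC and 12.0 to 16.2 CPM in HT29. Of 10 colorectal markers 8 lay above 1 CPM in both HT29 DMSO libraries. CDX1 and CDH17 were near 0 in all HT29 libraries, and CDX2 lay between 1.22 and 1.73 CPM. GPA33 (1.37 to 1.85 CPM) and FABP1 (1.69 to 2.09 CPM) were also low in HT29 DMSO. In every t-hESC group 3 of the 10 lay above 1 CPM in both libraries. Their summed level was 432 to 498 CPM in t-hESC and 7058 to 7121 CPM in HT29 DMSO.

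The promoters of 31 of the 37 genes were in the RefSeq table of build GRCh38.p14, as 250 bases before to 50 after the gene start. They are shown because the members moved together in HT29 and apart in t-hESC. The 4 below belong to the members in that table with the lowest (CCNB1, MAD2L1) and the highest (MKI67, CENPF) log2 fold changes under BIX in t-hESC. Each runs 5′ to 3′ on the strand of its gene, from 250 bases before to 30 bases after the gene start. Capitals mark CCAAT or its complement ATTGG, and the CHR letters TTTGAA. The stretches lie at chr5:69166900-69167179 (plus strand, CCNB1), chr4:120066819-120067098 (minus strand, MAD2L1), chr10:128126394-128126673 (minus strand, MKI67) and chr1:214602945-214603224 (plus strand, CENPF).
CCNB1: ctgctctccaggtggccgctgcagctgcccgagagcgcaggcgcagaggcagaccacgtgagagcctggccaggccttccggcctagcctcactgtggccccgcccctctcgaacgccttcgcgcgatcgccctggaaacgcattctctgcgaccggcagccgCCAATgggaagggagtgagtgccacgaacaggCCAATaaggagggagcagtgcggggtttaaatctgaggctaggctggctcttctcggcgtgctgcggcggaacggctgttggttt
MAD2L1: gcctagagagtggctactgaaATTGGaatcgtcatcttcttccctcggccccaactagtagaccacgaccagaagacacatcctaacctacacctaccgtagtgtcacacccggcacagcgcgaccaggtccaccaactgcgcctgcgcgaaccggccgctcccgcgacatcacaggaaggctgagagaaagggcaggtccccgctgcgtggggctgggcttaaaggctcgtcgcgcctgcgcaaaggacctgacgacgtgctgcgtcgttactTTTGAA
MKI67: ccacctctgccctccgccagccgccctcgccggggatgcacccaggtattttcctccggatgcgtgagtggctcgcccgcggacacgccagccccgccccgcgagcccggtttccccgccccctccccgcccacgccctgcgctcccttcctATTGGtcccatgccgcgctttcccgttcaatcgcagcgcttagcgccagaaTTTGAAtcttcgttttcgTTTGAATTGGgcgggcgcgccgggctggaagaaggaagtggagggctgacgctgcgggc
CENPF: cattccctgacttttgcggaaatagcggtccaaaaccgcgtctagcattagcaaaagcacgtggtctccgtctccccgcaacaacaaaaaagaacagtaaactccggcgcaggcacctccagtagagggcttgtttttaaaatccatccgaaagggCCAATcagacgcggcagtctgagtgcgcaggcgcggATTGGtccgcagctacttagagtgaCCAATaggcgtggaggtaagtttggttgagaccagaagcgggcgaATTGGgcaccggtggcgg

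With the first base of the gene counted as 1, CCNB1 held CCAAT at -87 and -55. It held neither TTTGAA nor TTCGAA in the window, the only CHR spellings searched, and other spellings were not looked for. MAD2L1 held ATTGG at -229 and TTTGAA at 25. MKI67 held TTTGAA at -47 and -29 and ATTGG at -98 and -24, and the last pair share a base. CENPF held CCAAT at -94 and -33 and ATTGG at -58 and 13, and TTTGAA at 41, past the printed stretch. Each of these genes, picked by its value under BIX, carried CCAAT or ATTGG, as did 25 of the 31 members. A link of CCAAT with the direction under BIX was not tested. Over both strands of the windows, TTTGAA was found in 23 of 31 members (74.2%) and in 18.2% of all 27305 promoters of the table. Its variant TTCGAA was found in 2 members (6.45%) and in 1.82% of all promoters. CCAAT was found in 25 members (80.6%) and in 39.7% of all. CCAAT together with TTTGAA or TTCGAA was found in 20 members (64.5%) and in 7.85% of all. The E2F site letters TTTGGCGC or TTTCGCGC were found in 2 members, CDK1 and NUSAP1 (6.45%), and in 1.4% of all. These are matches of letters in a window, not sites shown to be bound.

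The members were lowest by far in HT29 under VXN and differed little between the t-hESC groups. Their summed level was 1087 ± 5.05 CPM in HT29 VXN and 5316 ± 9.48 CPM in HT29 DMSO (SD, n = 2 each). It was 6555 ± 14.1 CPM in t-hESC BIX, 6137 ± 131 CPM in t-hESC VXN and 6773 ± 34.3 CPM in t-hESC DMSO (SD, n = 2 each). As a share of each line's DMSO level, that was 20.4% for HT29 VXN, 96.8% for t-hESC BIX and 90.6% for t-hESC VXN. Both HT29 VXN libraries held the lowest values of all 10 libraries for 37 of 37 members. The share of all tested genes for which this held was not computed, so this count is a description only. The other 4 groups had no common order. The highest group mean belonged to t-hESC DMSO for 20 members, HT29 DMSO for 10, t-hESC VXN for 4 and t-hESC BIX for 3, and 15 different orders of the 5 groups occurred. In such bulk samples, fewer dividing cells and less RNA of these genes per cell cannot be told apart.

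**Figure D1:**
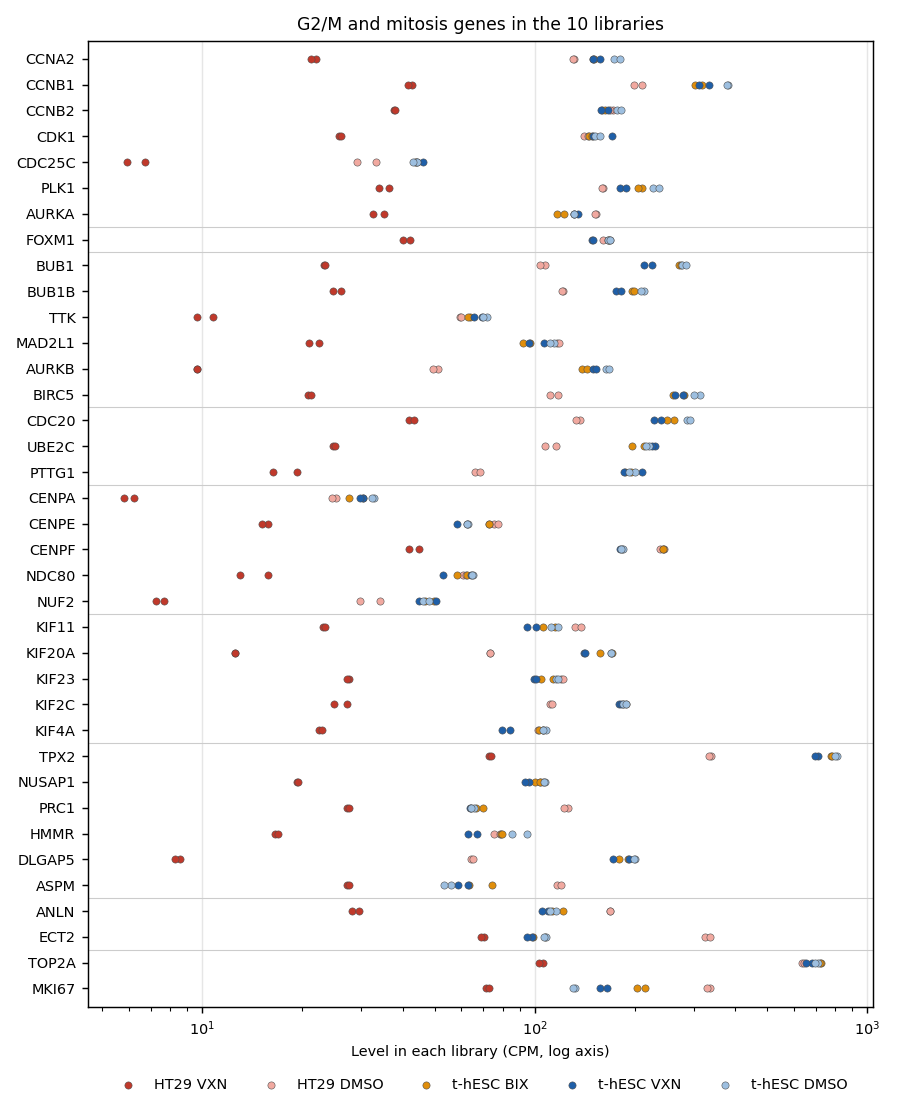
Level of each of the 37 genes in every library (CPM, log axis), with 1 point per library, colours for the 5 groups, and grey lines between roles. The HT29 VXN points lie to the left of all others in every row, while the other 4 groups change places from gene to gene.

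All 37 members were lower in HT29 under VXN. By edgeR's quasi-likelihood test with Benjamini-Hochberg adjustment over all 22495 genes (called at an adjusted p under 0.05), 37 of 37 were lower, against a background of 26.9% of all tested genes lower, 33% higher and 60% called in either direction. The falls were large as well as frequent: 34 of 37 had a log2 fold change below -2, against 2.3% of all genes, and 37 had one below -1, against 7.41%. The median log2 fold change of the members was -2.21 (4.62-fold lower), and that of all tested genes was 0.055. The range ran from -2.94 for DLGAP5 (7.65-fold lower) to -1.66 for CDC20 (3.17-fold lower), and all members lay within the lowest 4.82% of genes when ranked by fold change. The 37 calls held in each of 18 other settings, including each library left out in turn.

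Within the engine of mitotic entry, all 7 genes fell, with log2 fold changes of -2.60 to -2.16. CCNB1, which encodes cyclin B1, had 42.8 and 41.6 CPM in HT29 VXN, against 209.6 and 198 CPM in HT29 DMSO, a log2 fold change of -2.27 ± 0.045 (SE; edgeR adjusted p = 7.68e-50). CDK1, its kinase, had 25.8 and 26.2 CPM in HT29 VXN, against 140.0 and 144 CPM in HT29 DMSO, a log2 fold change of -2.45 ± 0.053 (SE; edgeR adjusted p = 1.54e-45). For neither gene did the groups come near each other. The S and G2 phase cyclin gene CCNA2 fell furthest of the 7, at -2.60, and AURKA, a kinase of the spindle poles, least, at -2.16. CCNB2, PLK1 and CDC25C, the last a phosphatase that activates CDK1, lay between them at -2.17, -2.18 and -2.31. FOXM1, the transcription factor of this program, had 40.2 and 42.1 CPM in HT29 VXN, against 168 and 160.0 CPM in HT29 DMSO. At -1.999 ± 0.044 (SE; edgeR adjusted p = 4.57e-47) its fall was among the 3 smallest of the list, and 34 members had a larger one.

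The spindle checkpoint and chromosomal passenger genes had a median log2 fold change of -2.41 over 6 genes. The checkpoint kinase gene TTK was at -2.54, BUB1 at -2.18, BUB1B at -2.25 and MAD2L1 at -2.44. The passenger genes AURKB and BIRC5 (survivin) were at -2.39 and -2.45. The smallest falls of the whole list belonged to the arm that ends mitosis. CDC20, the activator of the anaphase-promoting complex, had 41.9 and 43.2 CPM in HT29 VXN, against 137 and 133 CPM in HT29 DMSO, and the securin gene PTTG1 had 19.3 and 16.4 CPM, against 65.9 and 68.5 CPM. Their log2 fold changes were -1.66 ± 0.045 and -1.91 ± 0.071 (SE), and that of UBE2C, the ubiquitin-conjugating enzyme of the complex, was -2.17. Even here the libraries of HT29 VXN and HT29 DMSO were far apart.

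At the centromere and kinetochore, CENPF, a large kinetochore protein gene, had 41.9 and 44.7 CPM in HT29 VXN, against 238 and 245 CPM in HT29 DMSO. Its log2 fold change was -2.48 ± 0.041 (SE; edgeR adjusted p = 9.94e-54), the largest of the 5 genes of this role. CENPE, a kinetochore motor gene, was at -2.30, the microtubule-binding partners NDC80 and NUF2 at -2.08 and -2.11, and CENPA, the centromeric histone variant, at -2.05. The 5 kinesins ran from -2.55 for KIF20A and -2.54 for KIF11, a motor that pushes spindle poles apart, to -2.10 for KIF2C, a microtubule depolymerase. KIF4A and KIF23 were at -2.20 and -2.14.

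Among spindle microtubule proteins, TPX2, a spindle assembly factor that activates Aurora A, had 72.6 and 74.0 CPM in HT29 VXN, against 339 and 335 CPM in HT29 DMSO, a log2 fold change of -2.20 ± 0.036 (SE; edgeR adjusted p = 3.85e-54). DLGAP5, which stabilizes kinetochore fibres, had 8.56 and 8.31 CPM in HT29 VXN, against 64.3 and 65.1 CPM in HT29 DMSO, the largest fold change of the list. NUSAP1, HMMR, PRC1 and ASPM were at -2.44, -2.20, -2.17 and -2.11. The cytokinesis genes ANLN (anillin) and ECT2, an activator of the GTPase RhoA, were at -2.54 and -2.25. Of the chromosome structure genes, TOP2A (topoisomerase II alpha) had 106 and 103 CPM in HT29 VXN, against 636 and 645 CPM in HT29 DMSO, with -2.62 ± 0.034 (SE; edgeR adjusted p = 1.16e-59). MKI67, which encodes the proliferation marker Ki-67, had 71.4 and 72.6 CPM, against 337 and 329 CPM, with -2.21 ± 0.038 (SE; edgeR adjusted p = 4.28e-53). All 10 genes of these roles were called lower by edgeR, as were 26.9% of all tested genes in HT29 under VXN.

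**Figure D2:**
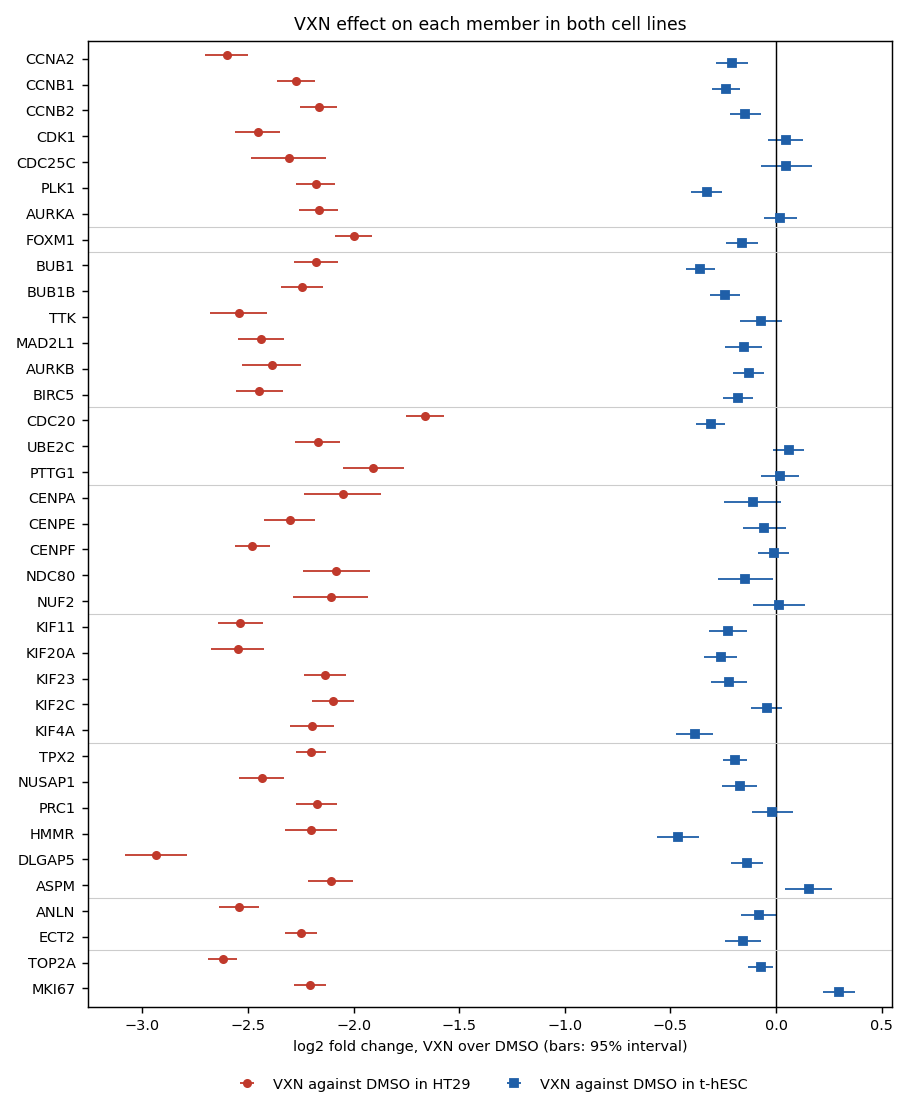
Log2 fold change of each gene, VXN over DMSO, in HT29 (red circles) and in t-hESC (blue squares), with 95% intervals. In HT29 the genes lie between -2.94 and -1.66, and in t-hESC between -0.47 and 0.30.

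Most genes of the other cell cycle lists were lower in HT29 under VXN too, with a few of opposite direction. Over all tested genes, 26.9% were lower and 33% higher in this comparison. Of 45 other mitosis genes 45 were lower, at a median log2 fold change of -2.17, among them the kinetochore gene ZWINT at -2.81 and the condensin gene NCAPD2 at -1.76. Of 32 G1/S and DNA replication genes 32 were lower, at the same median, with RRM2, the inducible subunit of ribonucleotide reductase, at -2.70. The list named for the anaphase-promoting complex core had a median of -0.24 over 14 genes, with 9 lower, 1 higher and 4 not called. These 14 also count UBE2S, a partner enzyme gene, at -0.90, and FBXO5, an inhibitor of the complex, at -1.37. Among 13 genes listed with the MuvB, DREAM and B-MYB complexes, RB1 included, 9 were lower and 1 higher. MYBL2, which encodes B-MYB, had 40.7 ± 1.15 CPM in HT29 VXN and 205 ± 3.02 CPM in HT29 DMSO (SD, n = 2 each), a log2 fold change of -2.34 ± 0.043 (SE). Of 12 brakes of the cell cycle 10 were lower and 2 higher. CDKN1A, which encodes the CDK inhibitor p21, had 97.4 ± 0.794 CPM in HT29 VXN and 10.2 ± 0.879 CPM in HT29 DMSO (SD, n = 2 each), a log2 fold change of 3.25 ± 0.062 (SE; edgeR adjusted p = 1.03e-50). BTG2 and PKMYT1 fell, by 2.11 and 1.80 on the log2 scale.

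**Figure D3:**
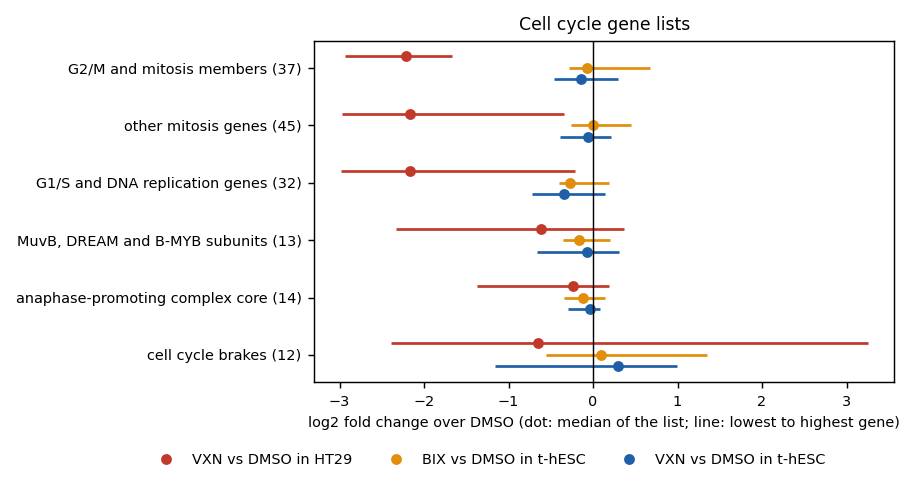
Median (dot) and range (line) of the log2 fold change over DMSO for 6 lists of cell cycle genes, with the number of genes in brackets, for VXN in HT29 (red), BIX in t-hESC (orange) and VXN in t-hESC (blue). In HT29 the members, the other mitosis genes and the G1/S genes have medians of -2.21, -2.17 and -2.17. The list of the anaphase-promoting complex core, which also holds UBE2S and FBXO5, has a median of -0.24.

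Other measures moved with VXN in HT29. Repeat families took 5.64% of counts in both HT29 VXN libraries and 4.25 and 4.31% in the HT29 DMSO libraries. The summed level of the 10 colorectal markers was 5500 to 5514 CPM in HT29 VXN (6 above 1 CPM) and 7058 to 7121 CPM in HT29 DMSO (8 above 1 CPM), and that of the 10 pluripotency markers was 12.6 to 16.2 CPM in HT29 VXN and 12.0 to 13.5 CPM in HT29 DMSO, with NANOG and ZFP42 at or near 0. Markers of both lists moved both ways. Of 9 colorectal markers tested 5 were lower and 1 higher, where 26.9% of all tested genes were lower and 33% higher. GPA33 and FABP1, at 2.09 CPM or less in HT29 DMSO, were under 1 CPM in HT29 VXN. KRT8 had 3569 and 3562 CPM in HT29 VXN, against 5376 and 5457 CPM in HT29 DMSO, while KRT20 had 699.6 and 707 CPM in HT29 VXN, against 247 and 252 CPM in HT29 DMSO. None of the 10 pluripotency markers exceeded 10 CPM in an HT29 library, and only 3 lay above 1 CPM in both libraries of either HT29 group. TDGF1 had 5.59 and 5.67 CPM in HT29 VXN, against 2.06 and 2.22 CPM in HT29 DMSO. DNMT3B had 4.41 and 4.71 CPM in HT29 VXN, against 9.22 and 7.68 CPM in HT29 DMSO. The others tested, at 1.11 CPM or less in HT29 outside these and POU5F1, passed the count filter through t-hESC. Their calls in HT29 are therefore left out. The part of these measures in the fall of the members was not tested.

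VXN at the same dose changed the members far less in t-hESC, and not all in the same direction. It left 20 of 37 lower (background 14.6% of all genes), 2 higher (background 14.5%) and 15 not called, where 29% of all tested genes were called in either direction. The median log2 fold change was -0.14, against 0.0036 over all genes. BUB1, a checkpoint kinase gene, had 225 and 213 CPM in t-hESC VXN, against 277 and 285 CPM in t-hESC DMSO, a log2 fold change of -0.36 ± 0.034 (SE; edgeR adjusted p = 1.98e-13). HMMR, which encodes a spindle protein that also binds hyaluronan, had 67.0 and 63.0 CPM, against 94.5 and 85.4 CPM in t-hESC DMSO, the largest change at -0.47 ± 0.049 (SE; edgeR adjusted p = 6.89e-12). PLK1, the polo-like kinase gene, had 181 and 188 CPM, against 226 and 237 CPM in t-hESC DMSO, with -0.33 ± 0.036 (SE; edgeR adjusted p = 1.98e-11). In each of these 3 genes both t-hESC VXN libraries lay below both t-hESC DMSO libraries.

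By role, the number of calls in t-hESC under VXN varied, where 14.6% of all tested genes were lower and 29% called in either direction. The roles hold too few genes to be told apart by such counts. Of the kinesins 4 of 5 were lower, with KIF4A at -0.39, KIF20A at -0.26, KIF11 at -0.23 and KIF23 at -0.22. Of the checkpoint and passenger genes 5 of 6 were lower, and of the spindle proteins 4 of 6, with TPX2 at -0.20 and NUSAP1 at -0.17. DESeq2 called 3 of the 6 checkpoint and passenger genes, against 5 by edgeR, and 3 of the 6 spindle proteins, against 5 by edgeR with ASPM included. None of the 5 centromere and kinetochore genes was called by edgeR, against 1 at an unadjusted p under 0.05 and 0 by DESeq2. CENPF was at -0.012 (95% interval -0.084 to 0.06). CCNB1 had 334 and 311 CPM in t-hESC VXN, against 381 and 378 CPM in t-hESC DMSO, and its log2 fold change was -0.24 ± 0.034 (SE; edgeR adjusted p = 4.98e-08). FOXM1 was lower at -0.16 ± 0.038 (SE; edgeR adjusted p = 0.000468). CDK1, with 170.1 and 149 CPM in t-hESC VXN, against 151 and 157 CPM in t-hESC DMSO, was not called at 0.047 ± 0.041 (SE; 95% interval -0.036 to 0.13), and its groups overlapped. Without t-hESC VXN replicate 1 the value for CDK1 was -0.050, and without replicate 2 it was 0.14 and called. TOP2A was not called either, at -0.073 ± 0.029 (SE; edgeR adjusted p = 0.0537).

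The members that broke the common direction were MKI67 and ASPM, a spindle pole gene known for its part in brain size. MKI67 had 157 and 165 CPM in t-hESC VXN, against 132 and 130.1 CPM in t-hESC DMSO, a log2 fold change of 0.30 ± 0.039 (SE; edgeR adjusted p = 3.98e-09). ASPM had 58.5 and 62.7 CPM, against 55.9 and 53.2 CPM in t-hESC DMSO, with 0.15 ± 0.056 (SE; edgeR adjusted p = 0.0275). The groups did not overlap for either gene. MKI67 was called in each of 18 other settings and ASPM in 13. Of the 20 lower members 16 were called in every setting, and CCNB2, MAD2L1, AURKB and DLGAP5 were not. DESeq2 with the same design called 1 member higher. The authors' deposited table called 2 of the 37 lower, PLK1 and BUB1B, and none higher, and it called 1210 genes in all.

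Among the other cell cycle lists in t-hESC under VXN, that of G1/S and DNA replication held the largest share of calls. Over all tested genes, 14.6% were lower and 14.5% higher in this comparison. Of 45 other mitosis genes 13 were lower and 3 higher, at a median of -0.066, with SMC2 of the condensin complex at -0.39 and ZWINT at -0.37. Of 32 G1/S and DNA replication genes 28 were lower and 1 higher, at a median of -0.35, with the helicase subunit genes MCM2 and MCM6 at -0.66 and -0.66. MYBL2 had 125 ± 6.07 CPM in t-hESC VXN and 198 ± 0.352 CPM in t-hESC DMSO (SD, n = 2 each), at -0.66 ± 0.038 (SE), and 4 of its list of 13 were lower. Of the 14 genes on the list of the anaphase-promoting complex core 4 were lower. Of 12 brakes 8 were higher and 1 lower. CDKN1A had 119 ± 0.567 CPM in t-hESC VXN and 60.1 ± 1.52 CPM in t-hESC DMSO (SD, n = 2 each), at 0.99 ± 0.046 (SE), and the stress gene GADD45A was at 0.93. The summed pluripotency markers were 5049 to 5080 CPM in t-hESC VXN and 5618 to 5713 CPM in t-hESC DMSO. Of 9 tested 5 were lower and 1 higher: SOX2 had 213 and 228 CPM in t-hESC VXN, against 281 and 269 CPM in t-hESC DMSO, and NANOG had 68.8 and 69.7 CPM in t-hESC VXN, against 53.2 and 51.1 CPM in t-hESC DMSO. Repeat families took 4.15 to 4.16% of counts in t-hESC VXN, 4.20 to 4.32% in t-hESC BIX and 3.52 to 3.54% in t-hESC DMSO. Their part in the changes in t-hESC was not tested.

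Whether VXN acted differently in HT29 and t-hESC was tested directly, as the log2 fold change in HT29 minus that in t-hESC. It was negative, with the stronger fall in HT29, for 37 of 37 members, against a background of 20.3% of all genes lower, 22.9% higher and 43.2% called in either direction. The differences on the log2 scale ran from -2.80 for DLGAP5 to -1.36 for CDC20, with a median of -2.19 where that of all genes was 0.054. For TOP2A the difference was -2.55 ± 0.045, for MKI67 -2.51 ± 0.054, for CENPF -2.47 ± 0.056, for CDK1 -2.50 ± 0.068, for CCNB1 -2.04 ± 0.057 and for FOXM1 -1.84 ± 0.059 (SE each), with edgeR adjusted p of 3.23e-37 or less. Spearman's rho between the 2 sets of log2 fold changes was 0.0742 over the 37 genes, which share libraries and are not independent. The order of the members in HT29 thus had little relation to their order in t-hESC. Of the other lists, 45 of 45 other mitosis genes and 31 of 32 G1/S and DNA replication genes were lower in this difference. CDKN1A differed in the other direction, by 2.26 ± 0.082 (SE).

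BIX in t-hESC left 13 of 37 members lower (background 12.2% of all genes), 4 higher (background 10.9%) and 20 not called, where 23.1% of all genes were called in either direction. The median log2 fold change was -0.07, against 0.0015 over all genes. Of the engine of mitotic entry 5 of 7 genes fell, and of the checkpoint and passenger genes 5 of 6, where DESeq2 called 4 and 3. The 3 other lower members were CDC20, HMMR and DLGAP5. CCNB1 had 318 and 304 CPM in t-hESC BIX, against 381 and 378 CPM in t-hESC DMSO, a log2 fold change of -0.29 ± 0.034 (SE; edgeR adjusted p = 5.14e-10), the largest fall. CCNA2 had 149.6 and 150.3 CPM, against 173 and 180.1 CPM in t-hESC DMSO, with -0.24 ± 0.038 (SE; edgeR adjusted p = 1.21e-06). AURKB, the passenger kinase gene, had 138 and 143 CPM, against 164 and 167 CPM in t-hESC DMSO, with -0.24 ± 0.039 (SE; edgeR adjusted p = 1.85e-06). In all 3 genes both t-hESC BIX libraries lay below both t-hESC DMSO libraries. MAD2L1, BIRC5, CDC20, HMMR, TTK, PLK1, CCNB2, AURKA, DLGAP5 and BUB1B fell by 0.25 to 0.094 on the log2 scale. Of the 13 calls 8 held in all 18 other settings. BUB1B kept its call in only 4 of 18, DLGAP5 in 12, TTK in 14, AURKA in 15 and HMMR in 16. DESeq2 called 8 members lower.

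The 4 members that rose under BIX were MKI67, CENPF, ASPM and CENPE, all of which encode very large proteins. MKI67 (chromosome 10, 128096659 to 128126423, GRCh38.p14) had 203 and 214 CPM in t-hESC BIX, against 132 and 130.1 CPM in t-hESC DMSO, a log2 fold change of 0.67 ± 0.038 (SE; edgeR adjusted p = 1.54e-22). CENPF (chromosome 1, 214603195 to 214664571) had 244 and 242 CPM, against 184 and 181 CPM in t-hESC DMSO, with 0.41 ± 0.036 (SE; edgeR adjusted p = 1.12e-14). For both, the t-hESC BIX libraries were well above the t-hESC DMSO libraries. ASPM (chromosome 1, 197084127 to 197146669) had 63.4 and 74.1 CPM, against 55.9 and 53.2 CPM in t-hESC DMSO, with 0.33 ± 0.056 (SE; edgeR adjusted p = 3.78e-06). CENPE (chromosome 4, 103105811 to 103198343) had 72.8 and 72.7 CPM, against 63.1 and 62.5 CPM in t-hESC DMSO, with 0.21 ± 0.051 (SE; edgeR adjusted p = 0.000837). Here the gap was narrower, and the t-hESC BIX libraries of ASPM differed more from each other than the lower of them did from the higher t-hESC DMSO library. All 4 were called in each of 18 other settings.

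TOP2A, CDK1 and FOXM1, which also mark dividing cells, were not called under BIX. TOP2A had 723 and 721 CPM in t-hESC BIX, against 709 and 694 CPM in t-hESC DMSO, at 0.042 ± 0.029 (SE; 95% interval -0.017 to 0.10). CDK1 had 145 and 149 CPM, against 151 and 157 CPM in t-hESC DMSO, at -0.07 ± 0.043 (SE; 95% interval -0.16 to 0.015). FOXM1 had 166 and 167 CPM, against 165 and 168 CPM in t-hESC DMSO, at -0.0018 ± 0.038 (SE; 95% interval -0.078 to 0.074), and its groups overlapped. None of the 5 kinesins was called by edgeR under BIX, against 1 at an unadjusted p under 0.05 and 0 by DESeq2. With 23.1% of all tested genes called, 5 genes are too few to set this role apart. Their log2 fold changes ran from -0.099 for KIF23 to -0.003 for KIF2C.

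The log2 fold change under BIX went with genomic gene length, though not for each member. Of the members that rose, CENPE, ASPM and CENPF span 92533, 62543 and 61377 bases. MKI67, the strongest riser, spans 29765 bases, near TOP2A at 29372, which was not called. The longest member, KIF4A (130783 bases), was at -0.032, and ECT2 (78540 bases) at -0.062. Spearman's rho with genomic gene length was 0.554 over the 37 members and 0.16 over 18625 tested genes with a length, and genes are not independent replicates. Under VXN in t-hESC it was 0.0019 over the members and -0.0465 over all genes. With offsets per library that remove the trend over all genes, rho under BIX was 0.354 over the members and -0.04 over all genes. MKI67, CENPF, ASPM and CENPE were then at 0.70, 0.39, 0.31 and 0.16, all still called. KIF4A, not called without the offsets, was then lower at -0.12 (edgeR adjusted p = 0.0375). The length of the mature transcripts was not used here.

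Under BIX, too, the G1/S and DNA replication genes held the largest share of calls among the other lists. Over all tested genes, 12.2% were lower and 10.9% higher under BIX. Of 32 G1/S and DNA replication genes 26 were lower and 1 higher, at a median of -0.28, with MCM6 at -0.40 and PCNA, the replication clamp gene, at -0.34. Of 45 other mitosis genes 10 were lower and 4 higher, at a median of -0.005. The cytokinesis kinase gene CIT was higher at 0.44 ± 0.046 and the passenger gene INCENP at 0.24 ± 0.044 (SE), and CKS1B, a small CDK subunit gene, was lower at -0.22. Of 13 genes on the list of the MuvB, DREAM and B-MYB complexes 5 were lower, with TFDP1, an E2F partner, at -0.36 and MYBL2 at -0.32. Of 14 genes on the list of the anaphase-promoting complex core 6 were lower. Of 12 brakes 3 were higher and 1 lower, with CDKN1A at 0.37 ± 0.05 (SE). The summed pluripotency markers were 5540 to 5622 CPM in t-hESC BIX and 5618 to 5713 CPM in t-hESC DMSO, with 3 higher and 2 lower of the 9 tested. The authors' deposited table called 0 of the 37 members under BIX at an adjusted p under 0.05, and 678 genes in all. MKI67 was there at an authors' adjusted p of 0.153. By edgeR, 17 members and 5199 genes were called. DESeq2 on the same 10 libraries called 4 members higher and 8 lower, and 2822 genes in all.

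**Figure D4:**
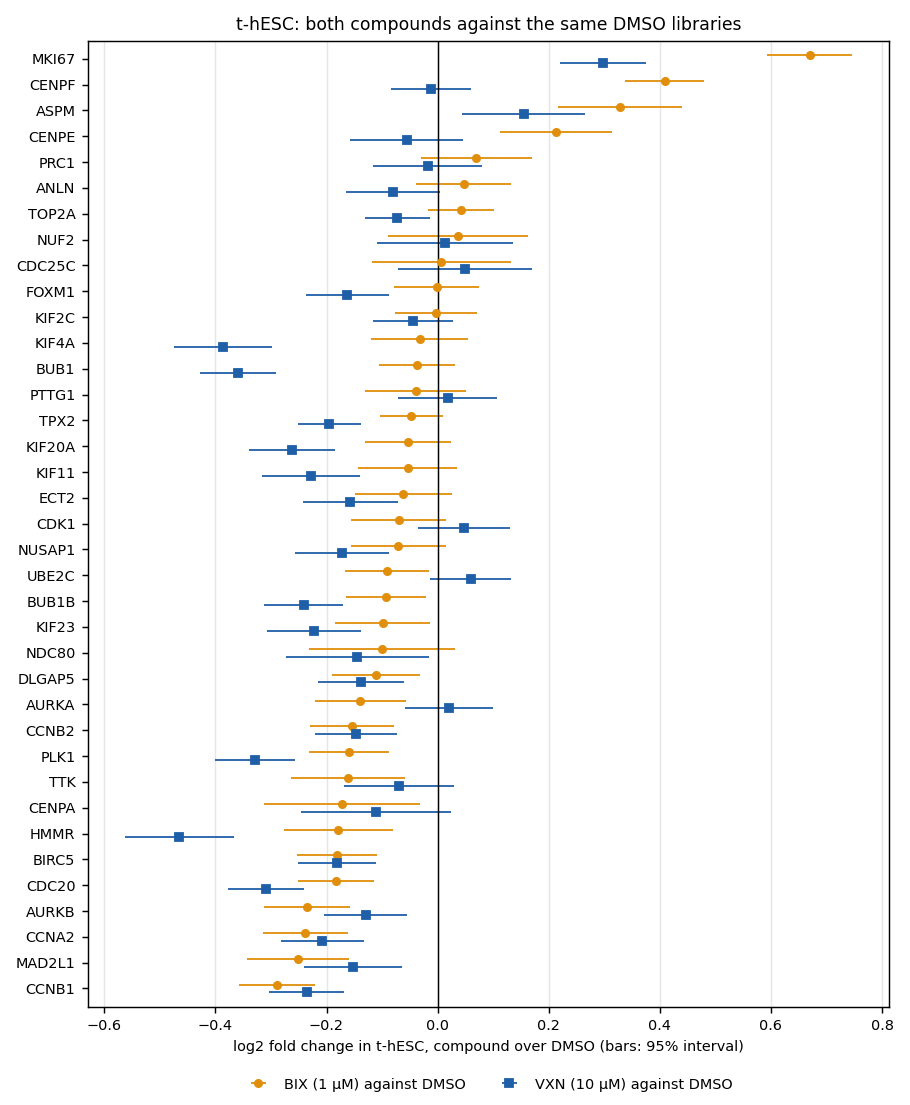
Log2 fold change over DMSO in t-hESC for BIX at 1 µM (orange circles) and VXN at 10 µM (blue squares), with 95% intervals, ordered by the BIX value. MKI67, CENPF, ASPM and CENPE lie at 0.67, 0.41, 0.33 and 0.21 under BIX, and at 0.30, -0.012, 0.15 and -0.056 under VXN. Both compounds are set against the same 2 DMSO libraries.

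The doses of BIX and VXN differ, and both comparisons use the same DMSO libraries, so their values are given side by side. HMMR was at -0.18 under BIX and -0.47 under VXN, KIF4A at -0.032 and -0.39, and BUB1 at -0.038 and -0.36. AURKA was at -0.14 under BIX and 0.021 under VXN, and CCNB1 at -0.29 and -0.24. Set directly against each other, VXN over BIX, 17 members were lower (background 11.2% of all genes), 4 were higher (background 11.6%) and 16 were not called. CENPF had 180.3 and 182 CPM in t-hESC VXN, against 244 and 242 CPM in t-hESC BIX, a log2 fold change of -0.42 ± 0.036 (SE; edgeR adjusted p = 4.19e-15). MKI67 and BUB1 were lower under VXN at -0.37 ± 0.038 and -0.32 ± 0.035 (SE), FOXM1 at -0.16 ± 0.039 and TOP2A at -0.11 ± 0.03. Their libraries did not overlap between the groups. The 4 higher members were AURKA at 0.16 ± 0.042, UBE2C at 0.15 ± 0.038, CDK1 at 0.12 ± 0.043 and AURKB at 0.11 ± 0.04 (SE). None of these 4 calls held in all 18 other settings: AURKA kept its call in 17, UBE2C in 16, CDK1 in only 6 and AURKB in only 4. The count of higher members was 2 without either HT29 VXN library or t-hESC DMSO replicate 1, and 2 by DESeq2. Of the other lists, VXN over BIX gave 11 lower and 5 higher of 45 other mitosis genes, and 15 lower and 2 higher of 32 G1/S and DNA replication genes. The log2 fold change of VXN over BIX went with genomic gene length as well, with a rho of -0.542 over the members and -0.217 over all genes, and of -0.317 over the members with the length offsets. Compound and dose cannot be told apart here.

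Under DMSO alone the lines differed gene by gene. HT29 was higher than t-hESC for 9 members (background 38.9% of all genes), lower for 22 (background 45.6%) and not called for 6, where 84.4% of all genes were called in either direction. The median log2 fold change of the members was -0.22 and that of all genes -0.12. Upper-quartile scaling moved the median of all genes to -0.23 and that of the members to -0.33. ECT2, the cytokinesis activator gene, had 326 and 337 CPM in HT29 DMSO, against 108 and 107 CPM in t-hESC DMSO, a log2 fold change of 1.62 ± 0.037 (SE; edgeR adjusted p = 3.53e-47). MKI67 had 337 and 329 CPM in HT29 DMSO, against 132 and 130.1 CPM in t-hESC DMSO, with 1.344 ± 0.035 (SE; edgeR adjusted p = 1.99e-43). ASPM had 117 and 119.7 CPM, against 55.9 and 53.2 CPM in t-hESC DMSO, with 1.12 ± 0.048 (SE; edgeR adjusted p = 2.41e-31). HT29 was well above t-hESC in all 3. PRC1, ANLN, CENPF, CENPE, KIF11 and AURKA were higher by 0.93, 0.57, 0.40, 0.28, 0.24 and 0.21.

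In the other direction, the smallest p among the 22 lower members belonged to TPX2, AURKB and BUB1. AURKB had 51.1 and 49.6 CPM in HT29 DMSO, against 164 and 167 CPM in t-hESC DMSO, with -1.72 ± 0.042 (SE; edgeR adjusted p = 3.59e-45). BUB1 had 108 and 104 CPM, against 277 and 285 CPM in t-hESC DMSO, with -1.41 ± 0.036 (SE; edgeR adjusted p = 4.51e-44). TPX2 had 339 and 335 CPM, against 812 and 798 CPM in t-hESC DMSO, with -1.26 ± 0.029 (SE; edgeR adjusted p = 2.7e-46). HT29 held less than t-hESC of all 3, with wide gaps. All 3 genes of the anaphase-promoting complex and securin role were lower, with PTTG1 at -1.54, CDC20 at -1.11 and UBE2C at -0.96, as were DLGAP5 at -1.63, BIRC5 at -1.42, KIF20A at -1.21 and CCNB1 at -0.90 ± 0.034 (SE). CDK1 and TOP2A were at -0.12 ± 0.04 and -0.13 ± 0.029 (SE), close to the median of all genes, and the calls of CDK1 and CCNB2 did not hold in every setting. FOXM1 was not called at -0.023 ± 0.036 (SE; 95% interval -0.095 to 0.049), nor were MAD2L1, NDC80, KIF23, KIF4A and NUSAP1. Both HT29 DMSO libraries lay above all 6 t-hESC libraries for 10 members and below all 6 for 20. The share of all genes with such a gap was not computed, so these counts are a description only. By edgeR, a different measure, 84.4% of all tested genes were called between the lines under DMSO.

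**Figure D5:**
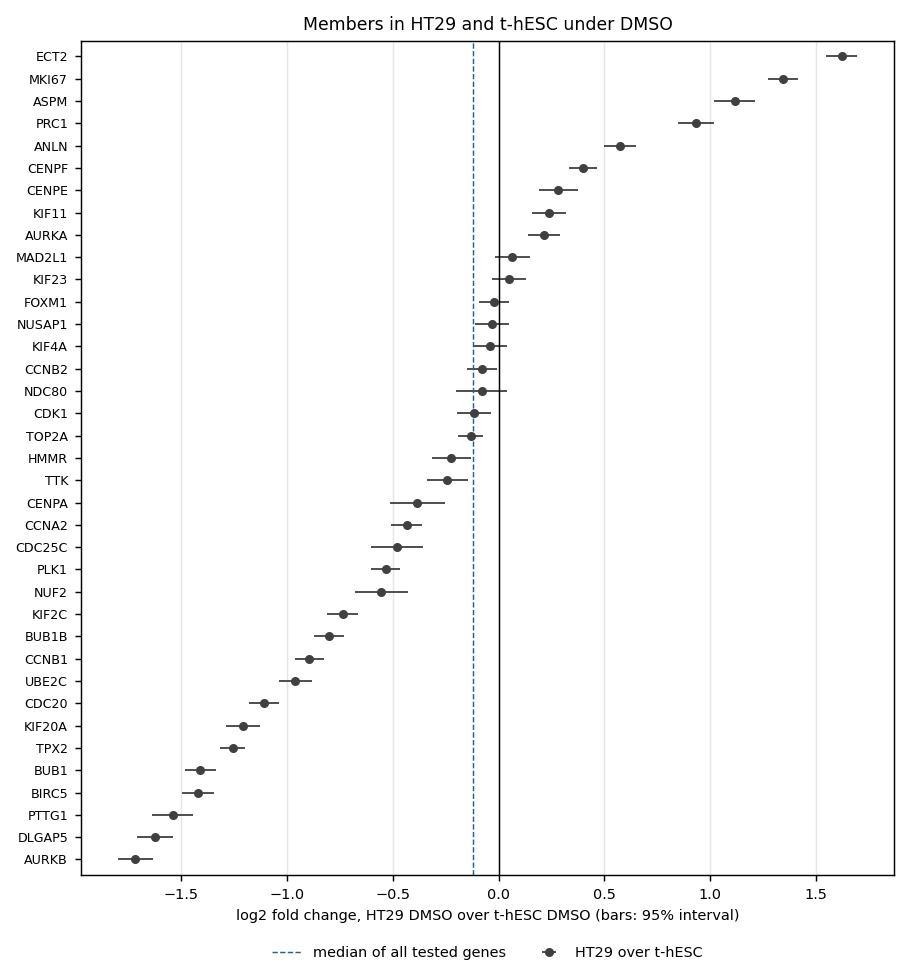
Log2 fold change of each member, HT29 DMSO over t-hESC DMSO, with 95% intervals, in falling order. The dashed line marks the median of all tested genes at -0.12. The members run from 1.62 for ECT2 to -1.72 for AURKB.

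Some of the other cell cycle genes differed more between the lines than any member. CDKN2A, which encodes the CDK inhibitor p16, had 92.3 and 86.8 CPM in HT29 DMSO and 0 and 0.141 CPM in t-hESC DMSO, at or under the limit that a count of 0 allows. RB1, which encodes the retinoblastoma protein, was higher in HT29 DMSO than in t-hESC DMSO by 2.48 ± 0.056 on the log2 scale (SE), and CDKN1A was at -2.56 ± 0.068 (SE). Over all tested genes, 38.9% were higher in HT29 DMSO, 45.6% lower and 84.4% called in either direction, so counts of calls say little here. Of 45 other mitosis genes 14 were higher and 26 lower, with CEP55, a midbody gene, at 1.81 and CKS2 at -1.38. Of 32 G1/S and DNA replication genes 9 were higher and 22 lower, at a median of -0.56. Of the MuvB, DREAM and B-MYB genes 8 of 13 were higher and 4 lower, of the brakes 7 of 12 higher and 5 lower, and of the anaphase-promoting complex core 3 of 14 higher and 9 lower.

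Reads that could be shared limit a few members, since the kit does not mark strand and how shared reads were counted was not given in the sources used here. PRC1 overlaps its antisense gene PRC1-AS1 over 22256 bases, and the antisense gene held 460 to 2261 counts per library, 68.5 to 84.4% of the count of PRC1. HMMR-AS1 held 6.93 to 10% of the count of HMMR, and the readthrough gene BUB1B-PAK6 4.71 to 7.58% of that of BUB1B. The copy CDC20P1 held 0.0903 to 5.4% of the count of CDC20. FOXM1 overlaps RHNO1 and ITFG2. Reads of these pairs cannot be told apart here. The levels of different members were not compared with each other, as transcript lengths were not used.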

How the data were processed

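Total RNA of HT29 and t-hESC cells was made into 10 libraries (5 groups of 2) with the TruSeq RNA v2 kit, per the labels' protocols. That kit does not mark strand. The authors deposited a table of raw counts per gene and repeat family, whole numbers whose totals differ between libraries. In 4 further tables the authors deposited their own comparisons, each gene with a log2 fold change and an adjusted p-value. Shrinkage of these log2 values was not given in the sources used here. The submitters' processing notes name DESeq2 1.34.0, STAR, fastp 0.20.1, FastQC 0.11.9 and the build GRCh38. Neither counter nor annotation was given in the sources used here. No sample matched 4 columns of the count table, which were not used. Groups and replicate numbers came from the sample titles.

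Rows of 1181 repeat families, 3.52 to 5.64% of counts, were left out. edgeR 4.0.16 (R 4.3.3) was run on the counts with TMM factors. filterByExpr at a minimum count of 10 kept 22495 genes. The robust quasi-likelihood F test used all 10 libraries, with 5 residual and 56.7 prior degrees of freedom and a common biological coefficient of variation of 0.0207. A call means a p under 0.05 after Benjamini-Hochberg adjustment over all kept genes. CPM used the TMM-scaled library sizes, and the SE of a log2 fold change was taken from its F statistic. Replicates correlated at 0.991 to 0.996, and their chi-square per degree of freedom was 1.19 to 1.85, where counting error alone gives about 1. No 2 libraries were counted as 1, since the series calls them biological replicates. These values cannot tell separate cultures from repeat preparations of 1 culture. Deviations of libraries with the same number correlated at -0.0409 to 0.0767, which shows no pairing by number. As replicates differed by little more than counting error, a weak pairing could be missed.

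The members and the other lists were chosen with earlier results of these data known. Full values are given, per comparison, for the 3 members with the smallest p in each direction among those called, members called against the majority, and CCNB1, CDK1, FOXM1, MKI67 and TOP2A. Other members are given as single values. From other lists up to 3 genes with the smallest p are named. Promoters came from RefSeq (31 of 37 members matched), and gene lengths for 82.8% of kept genes and 37 of 37 members. The tests were run on simulated counts with known changes. Alternatives were RLE factors, upper-quartile factors, DESeq2 1.42.0, other count filters (none, or a minimum of 50), a fit of only the groups compared, gene length offsets, a replicate block and each library left out.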

Additional observations from a re-analysis of the deposited data

Results flagged for a closer look

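The effect of VXN differed between HT29 and t-hESC, tested as an interaction, for 37 of 37 members, all lower. Of all tested genes, 43.2% were called in this interaction in either direction, and 20.3% were lower. The difference of the log2 fold changes, HT29 minus t-hESC, was -2.55 for TOP2A, -2.51 for MKI67, -2.50 for CDK1, -2.47 for CENPF, -2.04 for CCNB1 and -1.84 for FOXM1, each with edgeR's quasi-likelihood test at a Benjamini-Hochberg adjusted p of 3.23e-37 or less. For MKI67 the groups moved in opposite directions: 72.0 ± 0.805 CPM in HT29 VXN and 333 ± 5.82 CPM in HT29 DMSO, but 161 ± 5.88 CPM in t-hESC VXN and 131 ± 1.42 CPM in t-hESC DMSO (SD, n = 2 each). CDK1 fell in HT29 and was not called in t-hESC. Groups of 2 libraries allow no check for an outlying library.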

How the results depend on the processing

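All 37 members remained lower in HT29 under VXN, and in the difference between the lines, in each of 18 alternatives. The 4 members higher under BIX were called in all 18. Over counts of calls, 286 of 304 values lay within 1.5 times the reported one, and over named members 972 of 1028 kept direction and call, with 38 losing a call, 7 gaining one and 11 turning. DESeq2 called 8 members lower under BIX, and 2822 genes of all, against 13 and 5199; 3574 genes under VXN in t-hESC, against 6531; and 2557 for VXN over BIX, against 5110. Under VXN in t-hESC, 1 member was higher with upper-quartile factors, DESeq2 or no count filter, against 2, and 1 to 2 with a library left out (1 without t-hESC DMSO replicate 2). For VXN over BIX, 2 members were higher with RLE factors, upper-quartile factors, DESeq2 or only the groups compared, and 1 with gene length offsets, against 4. That count was 0 to 6 with a library left out: 0 without t-hESC BIX replicate 1, and 2 without HT29 VXN replicate 1 or 2 or t-hESC DMSO replicate 1. With the replicate number as a block it was 2, and CDK1 lost its call there (log2 fold change 0.12, adjusted p = 0.058); the block moved no other count of calls by over 1.5 times. Upper-quartile factors gave 2913 genes higher and 3749 lower under VXN in t-hESC.

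Values near 0 turned sign. FOXM1 under BIX (-0.0018) was 0.012 with RLE factors, 0.0098 with DESeq2, 0.0037 with a minimum count of 50, 0.00076 with only the groups compared, 0.041 with gene length offsets and -0.018 to 0.0034 with a library left out (0.0034 without t-hESC BIX replicate 1, 0.00017 without t-hESC DMSO replicate 2). CDK1 under VXN in t-hESC (0.047) was -0.050 without t-hESC VXN replicate 1, and 0.14 with a call without replicate 2. CCNB1 for VXN over BIX (0.053) was -0.0030 with gene length offsets. FOXM1 between the lines (-0.023) was 0.0054 with no count filter and -0.059 to 0.013 with a library left out (0.013 without HT29 DMSO replicate 2). For all of these the cause was not tested. Offsets by coding length were not run. The smallest change of a member called in t-hESC against DMSO was -0.094, for BUB1B under BIX, a call kept in only 4 of 18 alternatives.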
